A study of Salmo salar with 31 samples.

Results

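Skin of Atlantic salmon kept for 4 months in a semi-closed containment system in the sea (S-CCS 4M) was compared with skin of freshwater smolts. The comparison held 13 of the 31 fish of the study, 6 from S-CCS 4M and 7 smolts, chosen by their labels, and all 14841 non-control features of the array. A feature is a spot with a probe of its own, 1 spot for each probe. Total RNA of each fish was labelled with Cy3 and hybridized to its own array, a salmon oligonucleotide array read in a single colour.

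Fish skin is the barrier between the animal and the water. Its epidermis is a living, stratified epithelium with mucus cells, and the dermis below holds scales, collagen, vessels and connective tissue. Smoltification prepares the young salmon in freshwater for life in the sea, where the direction of salt and water flow across the body surface is turned round. In a semi-closed system the fish are held in an enclosure in the sea that receives pumped water from depth, whereas an open net-pen holds them in the water of the site.

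The S-CCS 4M fish had been in seawater for 4 months. The other seawater groups, with 6 fish each, were open net-pens at 1 and 4 months (net-pen 1M and net-pen 4M) and the semi-closed system after 1 month (S-CCS 1M), and they serve here only to place the S-CCS 4M values. The smolts were sampled in freshwater before transfer and came from the same batch of fish. Per the methods, each system was represented by 1 enclosure, and the enclosures lay at different sites. Between S-CCS 4M and smolts, time in the sea, growth, feed, season, temperature, enclosure and salinity all changed together, so their parts cannot be told apart. The skin pieces were whole tissue, in which fewer cells of a type and less RNA per cell cannot be told apart. None of the probe IDs could be found among the 65341 genes of the reference table used here, so features carry no gene names, no marker of skin or of another tissue could be checked, and no pathway is described.

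Values were processed signals in arbitrary units, scaled so that all arrays had an equal mean. Each signal was then expressed relative to the feature's average over the arrays, as an expression ratio (ER), and lowess was applied to its log2 (log2-ER). A log2-ER between groups below is S-CCS 4M minus smolts unless another pair is named, so a positive value means a higher level in S-CCS 4M. Of the 14841 features, 14172 were tested, those with a signal well above background in 50% or more of the fish of some group. Per array, 88.5% to 93% of features were well above background in S-CCS 4M and 86.6% to 92.4% in smolts. The mean signal of an array before scaling was 974.6 to 1918 in S-CCS 4M and 936.4 to 1831 in smolts. No spot was saturated. The dimmest arrays were those of S-CCS 4M fish 12 and smolt fish 1.

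The profile of the whole skin differed between the groups. The root mean squared difference between the mean of S-CCS 4M and the mean of smolts was 0.618 on the log2 scale over the 14058 features without a missing value. Among all 1716 ways to divide the 13 fish into groups of 6 and 7, the real one gave the largest difference (exact permutation test, p = 0.000583, the smallest this design can give). The nearest neighbour of every fish, by the same measure between single fish, was a fish of its own group. Pairs of S-CCS 4M fish were 0.68 apart on average, with a range of 0.501 to 0.875. Pairs of smolts were 0.782 apart, with a range of 0.525 to 1.197. An S-CCS 4M fish and a smolt were 0.915 apart, with a range of 0.652 to 1.201, so the ranges within and between groups overlapped. These are distances between single fish, so the 0.618 between means of 6 and 7 fish cannot be set against them.

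**Figure D1:**
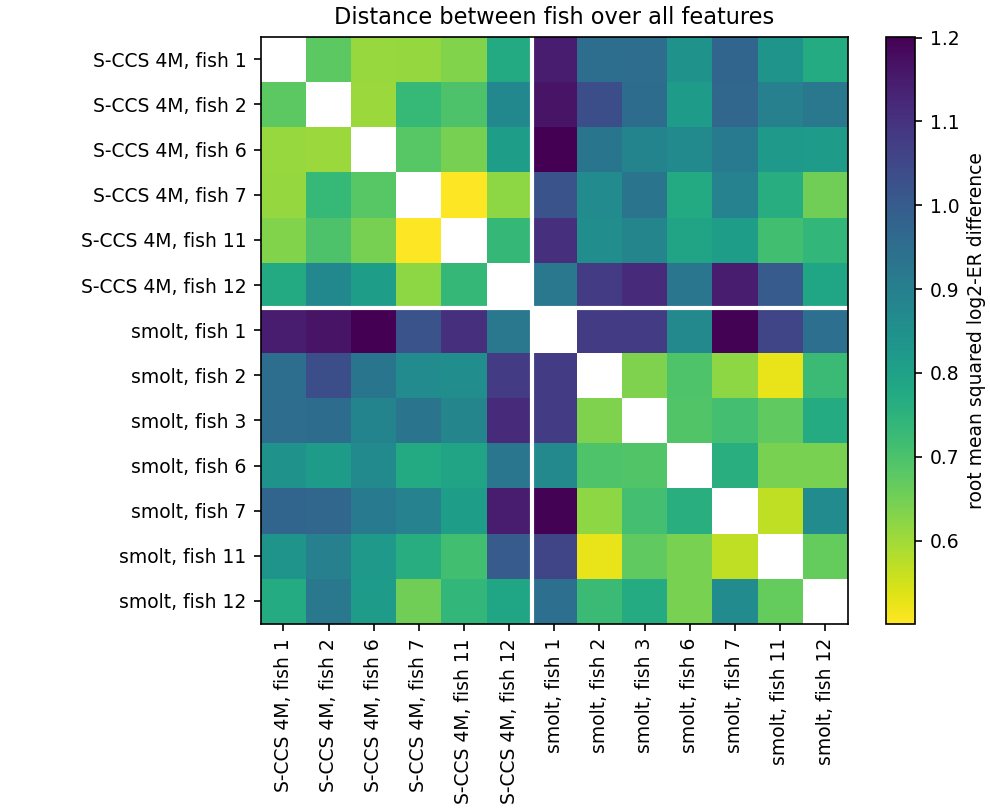
Root mean squared difference in log2-ER between each pair of fish, with S-CCS 4M fish above and to the left of smolts and white lines between the groups. Darker squares mark fish that lie farther apart, and the row of smolt fish 1 is dark against nearly all others, with a mean distance of 1.037 to its own group.

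Smolt fish 1 lay farther from the other smolts than any of them did from the rest, with a mean distance of 1.037 to its own group where the other 6 had 0.688 to 0.787. Without it, pairs of smolts were 0.679 apart on average, close to the 0.68 of S-CCS 4M, and S-CCS 4M fish were 0.885 from smolts. The median SD of a feature was 0.28 in S-CCS 4M and 0.331 in smolts, and smolts had the larger SD in 60.3% of features. Without smolt fish 1 the median SD of smolts was 0.264 and the share was 43.3%. Leaving out smolt fish 1 thus removed the larger spread of smolts, but no S-CCS 4M fish was left out in turn.

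The criteria of the study were a p under 0.05, without adjustment, and a log2-ER beyond 0.8 in either direction. By these 1594 of 14172 features (11.2%) were called between S-CCS 4M and smolts. Of these 823 were higher (5.81% of features) and 771 lower (5.44%) in S-CCS 4M. With Benjamini-Hochberg adjustment over all features, 3487 features (24.6%) had an adjusted p under 0.05 in limma, 1610 higher and 1877 lower, and 1383 features met both rules. All 6 S-CCS 4M fish lay on one side of all 7 smolts in 1794 features (12.7%), 756 higher (5.33%) and 1038 lower (7.32%). The median log2-ER over all features was 0.018.

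The balance of directions depended on the processing. The share of called features that were higher was 51.6% in the values above. It was 64.4% with 75th percentile scaling, which had no lowess step, and 37.5% with only lowess left out. With quantile normalization it was 50.3%, with normexp background correction 53% and with the authors' processed values 51.9%. With 75th percentile scaling the median of all features was 0.133. The share was 46.6% without smolt fish 1 and 56.9% without S-CCS 4M fish 12, the fish with the dimmest arrays. Neither direction can therefore be said to prevail.

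Most called features changed by less than 2 on the log2 scale. The 823 features that were higher had a median log2-ER of 1.19, with quartiles of 0.96 and 1.61. Among them 572 exceeded 1, 105 exceeded 2 and 21 exceeded 3. The 771 features that were lower had a median of -1.06, with quartiles of -1.39 and -0.9, and 456, 72 and 14 of them lay beyond -1, -2 and -3. All S-CCS 4M fish lay above all smolts in 397 of the 823, and below all smolts in 414 of the 771. Over all features the shares were 5.33% and 7.32%. The criteria chose features by the difference between these same fish, so the lack of overlap follows in part from the choice. The adjusted p was under 0.05 for 727 of the higher and 656 of the lower features.

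**Figure D2:**
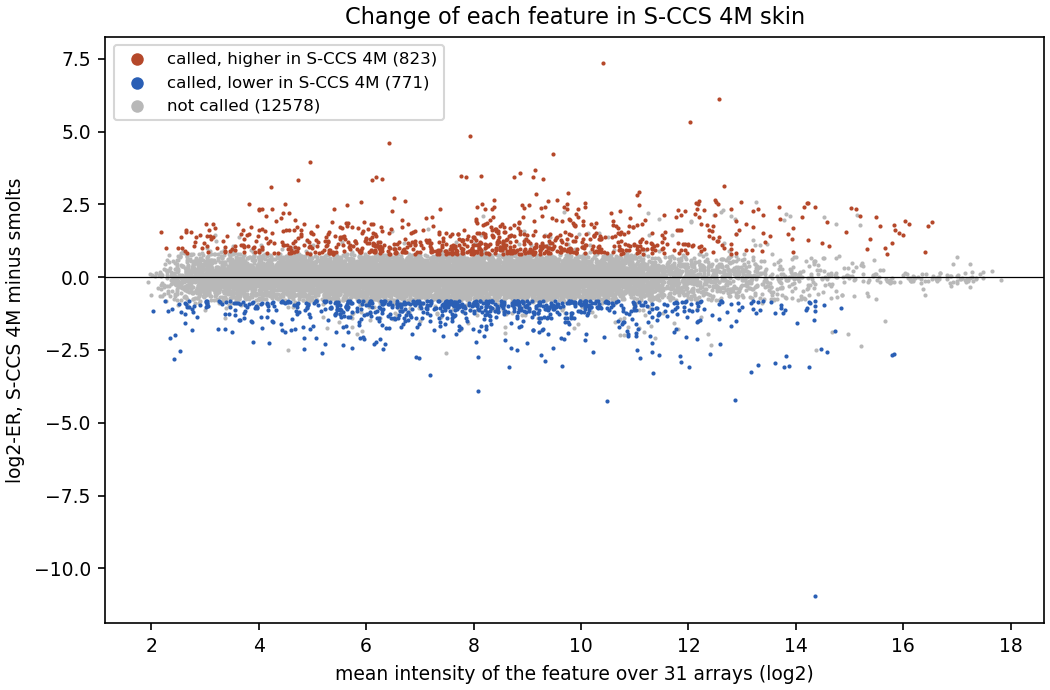
Each point is 1 of 14172 features, with its mean intensity over 31 arrays on a log2 scale against its log2-ER, S-CCS 4M minus smolts. Red points are the 823 features called higher, blue points the 771 called lower and grey points the rest, and 1 feature lies apart from all others at a log2-ER of -10.96.

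Calls were more frequent among bright features, where the error was smaller. Features were divided by mean intensity into 4 classes of 3543. In the dimmest class 8.66% met the criteria and 11.4% had an adjusted p under 0.05, with a median standard error of 0.274. In the brightest class 15% met the criteria and 35.6% had an adjusted p under 0.05, with a median standard error of 0.158. The median size of the change was 0.27 in the dimmest and 0.34 in the brightest class.

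The leading features were taken from those that passed an adjusted p of 0.05, had no overlap between the fish of both groups and were well above background on all 13 arrays. The 12 that rose most and the 12 that fell most were chosen. In all, 672 features qualified as higher and 975 as lower. The 12 leading risers had a log2-ER of 2.66 to 6.12, with adjusted p up to 0.0026, and the 12 leading fallers of -10.96 to -2.09, with adjusted p up to 0.0311. These values chose them and are a description. Of each direction, 2 are given by name below.

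The feature with the highest log2-ER among the leading risers was Ssa#S30269971. Its normalized intensity was 4180 at the lowest, 6160 at the median and 25700 at the highest in the S-CCS 4M fish, and 42.9, 104 and 348 in the smolts. The dimmest S-CCS 4M fish was thus far brighter than the brightest smolt. The log2-ER was 6.12 ± 0.82 (SE from the fit of 5 groups, 6 and 7 fish compared) with an adjusted p of 5.66e-06 in limma. On the 2 slides that held both groups, each with 2 fish of either, the difference was 6.71 on slide 5 and 7.23 on slide 6.

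The next riser was Ssa#S50687585. Its intensity was 2770, 3550 and 17300 at the lowest, median and highest in S-CCS 4M, and 41.4, 131 and 525 in smolts. The groups were again well apart. The log2-ER was 5.34 ± 0.91 (SE) with an adjusted p of 8.76e-05 in limma, and 6.37 on slide 5 and 6.08 on slide 6. S-CCS 4M fish 11 was the brightest of its group for both features and smolt fish 12 the brightest smolt for both. Whether both probes read the same gene is not known here.

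The largest change of all was a loss. Ssa#CB509156 had an intensity of 10.2 at the lowest, 21.5 at the median and 131 at the highest in S-CCS 4M, and 16900, 67100 and 154000 in smolts. S-CCS 4M fish 2 and 6, at 118 and 131, lay above the 10.2 to 27.1 of the other 4 fish. The feature was still well above background in all 6 S-CCS 4M fish, but levels of 10.2 to 27.1 were close to background. In net-pen 1M fish, other leading features at 9.11 and 11 were not well above background. The log2-ER of Ssa#CB509156 was -10.96 ± 1.34 (SE) with an adjusted p of 2.33e-06 in limma, and -10.8 on slide 5 and -12.22 on slide 6. With normexp background correction, which also differed in the signal and the normalization, it was -8.68.

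Ssa#CK888312 was the next faller. Its intensity was 174, 1120 and 2080 at the lowest, median and highest in S-CCS 4M, and 2780, 18800 and 35400 in smolts. The gap between the groups was narrow beside the spread within them, with smolt fish 3 at 2780 and S-CCS 4M fish 12 at 2080. The log2-ER was -4.21 ± 1.44 (SE) with an adjusted p of 0.0311 in limma, and -6.04 on slide 5 and -2.99 on slide 6. This adjusted p was 0.0632 without S-CCS 4M fish 6, 0.072 without S-CCS 4M fish 7, 0.0513 without smolt fish 1 and 0.0553 without smolt fish 11. The fit draws its SE from all 5 groups. The SD of this feature was 1.37 in S-CCS 4M and 1.31 in smolts. It was 4.9 in S-CCS 1M, where not all fish were well above background. With the 13 arrays of the 2 groups only, the adjusted p was 0.000699 in limma. Smolt fish 3 had the lowest level among smolts for both fallers.

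**Figure D3:**
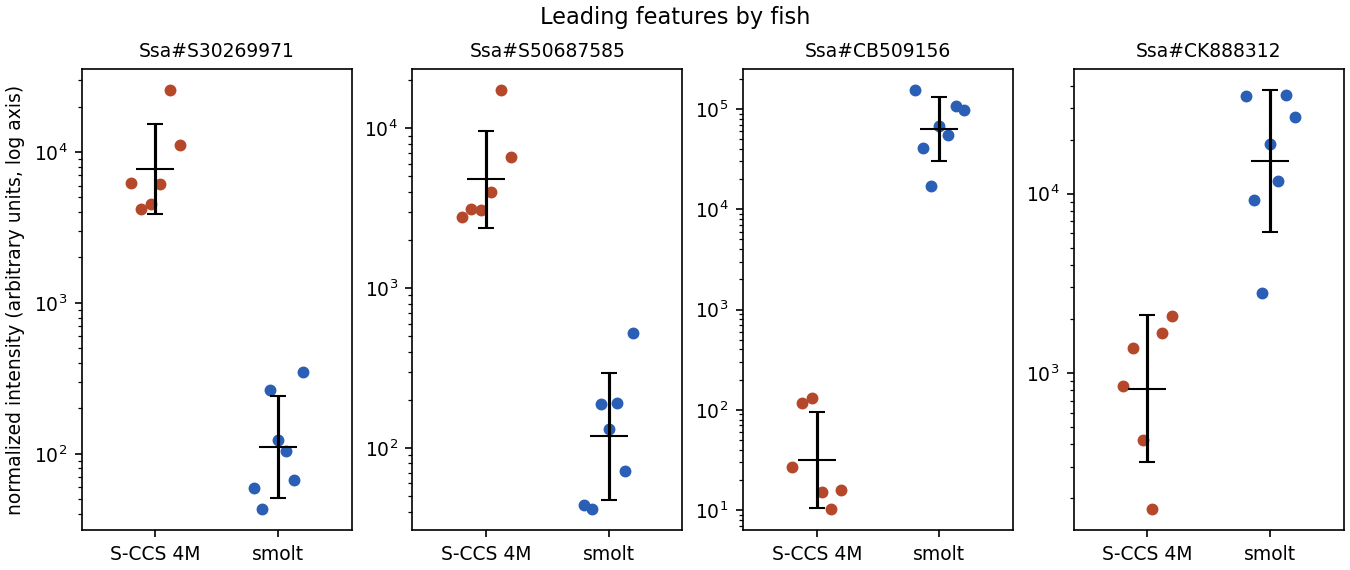
Normalized intensity of 4 leading features in each of the 6 S-CCS 4M fish (red) and 7 smolts (blue), in arbitrary units on a log axis with its own range in each panel. The horizontal bar is the mean of the log2 values and the whiskers are 1 SD of them, and in no panel do the groups overlap.

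The slides could be set against the whole set of calls as well. S-CCS 4M lay on slides 4, 5 and 6 and smolts on slides 5, 6, 7 and 10. On slide 5, 99.6% of the 823 features called higher were higher in S-CCS 4M than in the smolts of that slide, with a median difference of 1.56, and 98.3% of the 771 called lower were lower, with a median of -1.07. On slide 6 the shares were 97% and 99.6%, with medians of 1.11 and -1.15. These fish are part of the calls, so the shares describe them and are no separate test. With slide as a block in limma, 1825 features were called and 2563 passed the adjusted threshold of 0.05. In that fit the difference between the groups comes only from slides 5 and 6, with 2 fish of each group on either.

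A few features passed from background to signal. Of all 14841 features, 12239 were well above background on all 13 arrays and 517 on none. In 3 features all S-CCS 4M fish and no smolt were well above background, and in 0 the reverse held. Features well above background in every fish of one group and in at most 50% of the other numbered 29 with S-CCS 4M as the detected group and 13 with smolts as the detected group. For these only a lower bound of the fold was taken, from the mean level of the detected group against the lowest signal that was well above background on each array of the other, or the feature's own signal where it was higher.

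The detection that chose these features already differs between the groups, so they are described without a test. For the 29 the median bound was 2.45-fold. The largest bound was that of a feature with intensities of 52.1 to 278 in S-CCS 4M and 2.33 to 5.68 in smolts, at least 12.3-fold higher. The next bounds were at least 6.6-fold, with 3 of 7 smolts well above background, and at least 5.03-fold, with no smolt well above background. The former feature had intensities of 27.7 to 174 in S-CCS 4M and 3.14 to 46 in smolts, so the groups overlapped. The latter had 15.2 to 69 in S-CCS 4M and 1.34 to 7.58 in smolts. The bounds of the 13 were smaller, with at least 2.74-fold, 2.35-fold and 1.93-fold lower levels in S-CCS 4M for the 3 largest. The highest log2-ER of all tested features, 7.35, belonged to a feature that was well above background in all 6 S-CCS 4M fish and in 6 of 7 smolts, and it is not among the leading features for that reason.

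The other seawater groups place these levels in time and system. Their contrasts with smolts share the 7 smolts with the contrast of S-CCS 4M, so the values are set side by side and no likeness is tested. Over the 823 features called higher in S-CCS 4M the median log2-ER to smolts was 1.19 in S-CCS 4M itself, 0.57 in fish of S-CCS 1M, 0.93 in net-pen 1M and 0.84 in net-pen 4M. Over the 771 called lower it was -1.06 in S-CCS 4M itself, -0.3 in fish of S-CCS 1M, -0.56 in net-pen 1M and -0.69 in net-pen 4M. The values of S-CCS 4M chose these features and are the farthest from 0 for that reason also.

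Both risers, which were chosen by their S-CCS 4M values, had lower levels in S-CCS at 1 month than at 4 months. For Ssa#S30269971 the mean log2-ER to smolts was 1.65 in S-CCS at 1 month (adjusted p = 0.279, limma) and 6.12 there at 4 months. The intensity in S-CCS 1M was 134 to 2150, and fish 1 and 2 of that group, at 556 and 2150, lay above all smolts. In net-pens it was 5.09 at 1 month and 6.18 at 4 months. S-CCS 4M exceeded S-CCS 1M by 4.47 ± 0.85 (SE, adjusted p = 0.00085, limma), whereas its difference from net-pen 4M was -0.05 ± 0.85 (SE, adjusted p = 0.978, limma). For Ssa#S50687585 the means were 1.26 in S-CCS at 1 month (adjusted p = 0.487, limma) and 5.34 there at 4 months, again with S-CCS 1M fish 1 and 2 above all smolts, at 638 and 1500, and 4.35 and 5.25 in net-pens at 1 and 4 months. S-CCS 4M exceeded S-CCS 1M by 4.08 ± 0.95 (SE, adjusted p = 0.00426, limma). S-CCS 1M fish 1 and 2 shared slide 8 with net-pen 4M fish 6 and 7, the highest of their group for both features. A part of that slide in these levels was not tested.

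One of the fallers was already low in every fish at 1 month in S-CCS. For Ssa#CB509156 the mean log2-ER to smolts was -10.26 in S-CCS at 1 month, with intensities of 13.7 to 538, and -10.96 there at 4 months, and -7.85 and -10.24 in net-pens at 1 and 4 months. In net-pen 1M one fish had 128000, within the range of smolts, and the other 5 had 22.4 to 300. The same net-pen fish had 65600 for Ssa#CK888312, above all smolts. S-CCS 4M and S-CCS 1M did not differ past the threshold for Ssa#CB509156 (difference of -0.7 ± 1.39, SE, adjusted p = 0.777, limma), which does not show that their levels were the same. Levels of Ssa#CK888312 in S-CCS 1M were mixed. Fish 2 and 11, at 4630 and 5240, lay within the range of smolts, fish 7 and 12 were lower, at 1010 and 1690, and fish 1 and 6, at 5.54 and 2.88, were not well above background, so no mean is given for that group. In net-pens its mean was -2.62 at 1 month and -5.63 at 4 months.

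**Figure D4:**
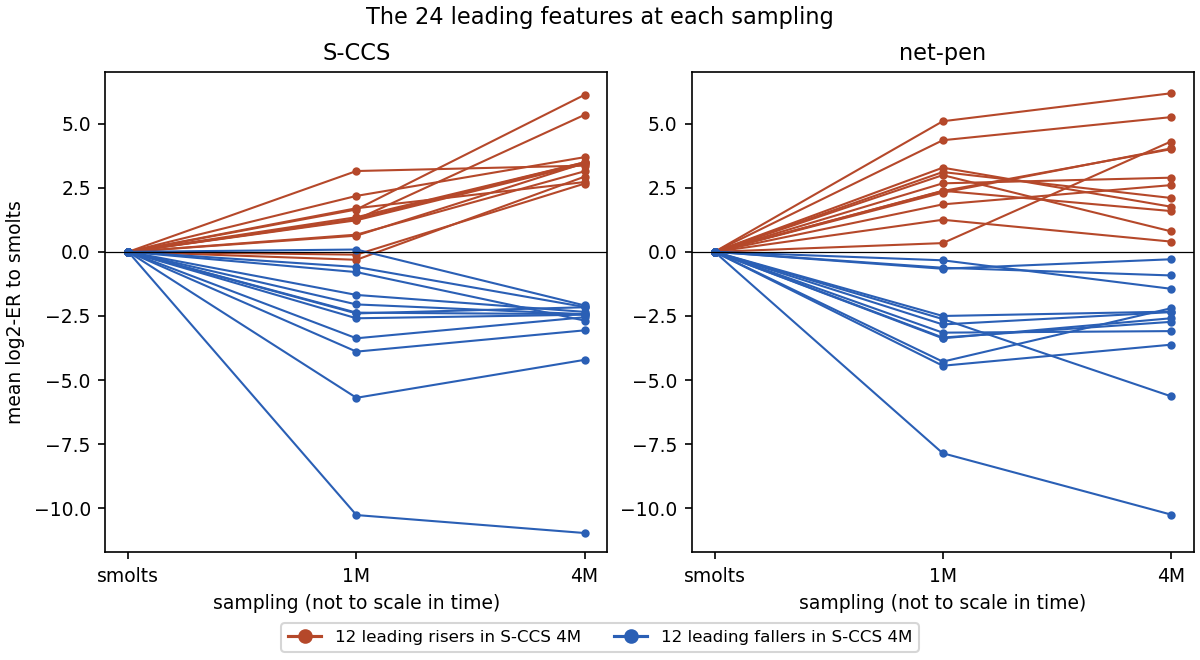
Mean log2-ER to smolts of the 24 leading features in smolts and at 1 month (1M) and 4 months (4M) in S-CCS (left) and net-pens (right), with 1 line for each feature. The 12 risers (red) lay between -0.31 and 3.15 at 1 month in S-CCS and between 2.66 and 6.12 at 4 months. The fallers (blue) lay between -10.26 and 0.09 at 1 month and between -10.96 and -2.09 at 4 months, and the 1M value in S-CCS of the next lowest faller includes 2 fish not well above background.

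The other leading features varied in the same comparisons. Among the 12 risers, S-CCS 4M was above S-CCS 1M at an adjusted p under 0.05 in limma in 10, and S-CCS 1M was above smolts at that threshold in 3. Among the 12 fallers S-CCS 4M differed from S-CCS 1M in 3, and S-CCS 1M lay below smolts in 9. These 9 include Ssa#CK888312, whose test rests in part on S-CCS 1M fish 1 and 6, which were not well above background. At that threshold net-pen 4M differed from smolts in 9 of the 12 risers and 10 of the 12 fallers, and S-CCS 4M differed from net-pen 4M in 4 risers and 2 fallers. For comparison, 16.5% of all features had an adjusted p under 0.05 between S-CCS 4M and S-CCS 1M, 7.87% between S-CCS 4M and net-pen 4M, 4.52% between S-CCS 1M and smolts and 19.1% between net-pen 4M and smolts. The 24 features were chosen by their S-CCS 4M values, and their balance was not that of all calls. Over all calls S-CCS 4M differed from S-CCS 1M at that threshold in 282 of the 823 higher and in 408 of the 771 lower features.

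Some leading features also differed between S-CCS 4M and both S-CCS 1M and net-pen 4M. The riser at rank 10 had an intensity of 3790 to 15500 in S-CCS 4M and 373 to 1230 in smolts, a log2-ER of 2.93. It exceeded net-pen 4M by 2.53 (adjusted p = 0.0171, limma) and S-CCS 1M by 3.24 (adjusted p = 0.0012, limma). Net-pen 4M fish 6, 7 and 11 had 4370, 3270 and 2850, near most S-CCS 4M fish, and the highest lay above the lowest S-CCS 4M fish. Net-pen 4M fish 1, 2 and 12 had 482, 187 and 272. In net-pen 1M the range was 943 to 3370. The 15500 belonged to S-CCS 4M fish 12, and the next highest S-CCS 4M fish had 5690. The faller at rank 12 had an intensity of 14.5 to 20.9 in S-CCS 4M and 34.5 to 138 in smolts, a log2-ER of -2.09. It lay at -1.79 against net-pen 4M (adjusted p = 0.0151, limma) and -2.18 against S-CCS 1M (adjusted p = 0.00149, limma). The riser at rank 12 ran the other way between the systems, 2.66 above smolts but at -1.64 against net-pen 4M (adjusted p = 0.0228, limma).

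Over all features, 786 (5.55%) were called between S-CCS 4M and net-pen 4M and 1252 (8.83%) between S-CCS 4M and S-CCS 1M. Among the 1594 features called against smolts, 322 were also called against net-pen 4M in either direction, 200 of the risers and 122 of the fallers. Against S-CCS 1M the number was 639, with 277 of the risers and 362 of the fallers. All 3 contrasts share the S-CCS 4M fish, so these counts are not independent of the calls against smolts. Features that met both criteria and an adjusted p under 0.05 in all 3 contrasts in one direction numbered 39 higher and 63 lower. The 39 had a median log2-ER of 1.59 against smolts, 1.29 against net-pen 4M and 1.29 against S-CCS 1M, and in 33 of them all S-CCS 4M fish lay above all smolts. The 63 had medians of -1.18, -0.95 and -1.27 in the same order, and in 55 all S-CCS 4M fish lay below all smolts. Over all features, 5.33% lay above all smolts in this way and 7.32% below. The 39 and 63 were chosen in part by their difference from smolts, so the lack of overlap follows in part from that choice. In net-pen 1M the median log2-ER to smolts was 1.15 for the 39 and -0.58 for the 63.

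No slide of S-CCS 4M held a fish of net-pen 4M or S-CCS 1M, so in these contrasts the slides cannot be told apart from the groups except through the smolts. With slide as a block, the fit held only the slides of S-CCS 4M and smolts. Of net-pen 4M it kept fish 1 and 2, on slide 7, and of S-CCS 1M fish 11 and 12, on slide 10. Against both smolts and net-pen 4M, 679 features were then called in place of 322. Against both smolts and S-CCS 1M, 547 were called in place of 639. These counts thus differ in the fish used as well as in the block. The software had corrected a spatial trend on 1 of the 6 S-CCS 4M arrays, 4 of the 6 net-pen 4M arrays, 1 of the 6 S-CCS 1M arrays and 0 of the 7 smolt arrays, and its part in the results was not tested.

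**Figure D5:**
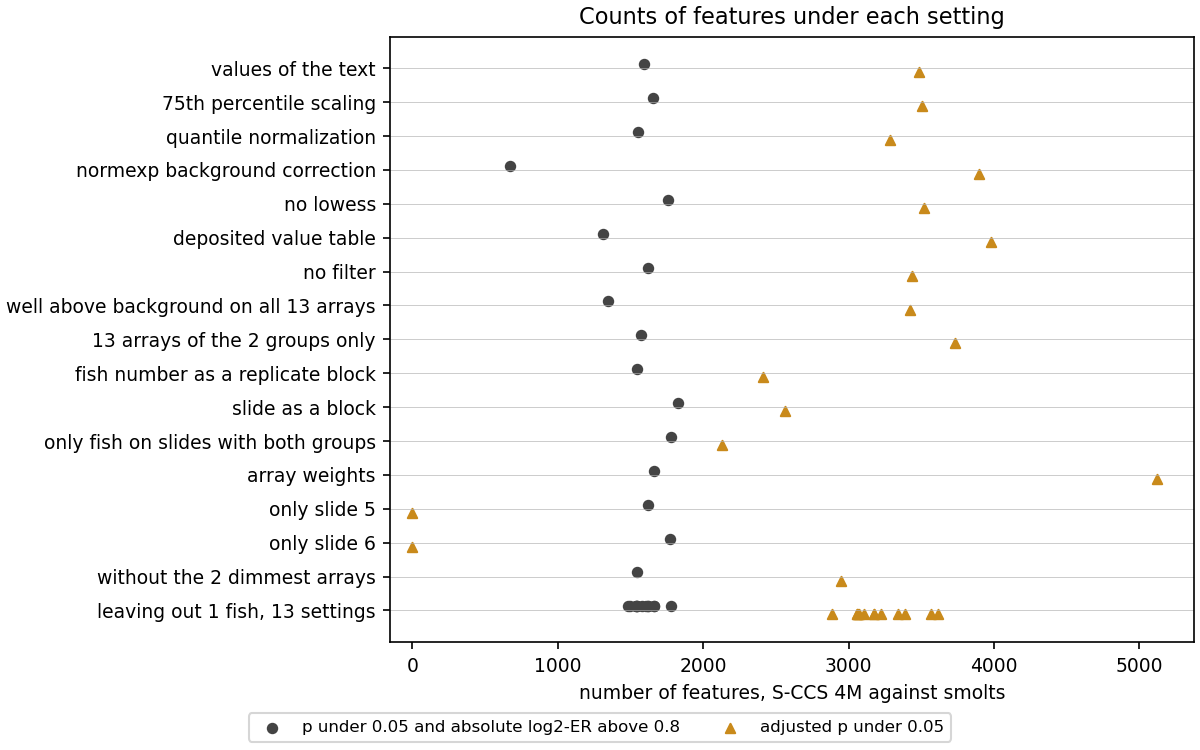
Number of features between S-CCS 4M and smolts under each way of processing, with circles for the study's criteria and triangles for an adjusted p under 0.05. The lowest count by the study's criteria was 673, with normexp background correction, where 3899 features had an adjusted p under 0.05. The lowest counts by adjusted p were 0 and 1, within single slides of 4 arrays.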

How the data were processed

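The skin RNA of 31 fish had been read on 10 slides of single-colour arrays within 1 scan day. For each array the authors deposited the output of the scanner software, whose processed signal is an intensity after background subtraction, and a table of processed values. These are an intensity too, the median signal minus the local background times a constant for each array (SD of the log2 ratio 0.00102 to 0.00133 over values of at least 200). Flags for outlier spots and for signals well above background were deposited by the authors in the same tables, with values of another kind (0 or 1). Control spots (536 of 15377) and 145 outlier values were left out. Log2 ratios were computed here. All 31 arrays were brought to the same mean, each feature was set relative to its average, and the log2 of this was adjusted by lowess against mean intensity, with a span of 0.3. The methods of the study name these steps but not the signal or the span, and do not name the test.

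Groups were compared in limma 3.58.1 (R 4.3.3) in 1 fit of 5 groups over 14172 features. Figures were drawn in Python with matplotlib. Groups and fish numbers came from the labels. Throughout, the p-values rest on the spread between fish of a group. Each fish was read on 1 array, so this spread includes variation between arrays and slides. With 1 enclosure for each system, the spread between enclosures was not measured, and the number of arrays limits the precision. In the fit of all arrays, SE and p draw on the spread within all 5 groups, not only the groups compared. The steps were tested on simulated data. Alternatives were other scalings, omission of lowess, other filters, the authors' processed values, normexp (offset of 50), blocks for slide and fish number, array weights and leaving out each fish. Values within single slides, values without the dimmest arrays and the exact permutation test were chosen after seeing the data. The comparison, the naming rule and the lists were chosen with earlier results of these data known. The naming rule took the 12 highest and 12 lowest features as described, and the 3 largest bounds in each direction. Since no probe ID could be paired with a gene, planned gene lists and cell type markers were not used here, at most 2 IDs in each direction are printed and no sequence is shown. Fish numbers did not pair the groups.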

Additional observations from a re-analysis of the deposited data

Results flagged for a closer look

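In groups of 6 or 7 fish, 14 sets of values were examined for a fish far from the rest, of which chance would flag about 0.7. Smolt fish 1 was the only one found, with a mean distance of 1.037 to the other smolts, where those had 0.688 to 0.787. Its array also had the lowest mean signal of the 13, at 936.4. Without this fish 1606 features were called, of which 1375 were also called with all fish.

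For both leading risers, chosen by their S-CCS 4M values, the change from smolts was larger in S-CCS 4M than in S-CCS 1M. No slide held fish of both these groups, so slide and group cannot be told apart here. The difference was 4.47 for Ssa#S30269971 (adjusted p = 0.00085, limma) and 4.08 for Ssa#S50687585 (adjusted p = 0.00426, limma), the SE being 0.85 and 0.95. Both features were higher in all 6 S-CCS 4M fish than in all 6 S-CCS 1M fish, at 4180 to 25700 against 134 to 2150 for Ssa#S30269971 and at 2770 to 17300 against 108 to 1500 for Ssa#S50687585. Such a difference is not particular to them. At an adjusted p under 0.05 in limma it was found in 10 of the 12 leading risers and, in either direction, in 16.5% of all features.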

How the results depend on the processing

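The 1594 called features became 673 with normexp background correction. That setting gave 104 features called against net-pen 4M as well (322 in the report) and 216 called against S-CCS 1M as well (639). It also gave 3899 features with an adjusted p under 0.05 (3487 in the report) and 1995 without overlap (1794). It differed in the signal and the normalization too. Leaving out 1 fish at a time gave 1486 to 1781 calls, 2885 to 3614 features with an adjusted p under 0.05, 1853 to 2290 without overlap, a share of higher calls of 46.6% to 56.9%, and 274 to 382 and 584 to 706 also called against net-pen 4M and S-CCS 1M. With fish number as a replicate block the counts were 1545 called, 54.4% of them higher, and 2413 with an adjusted p under 0.05. Fish of the same number correlated at -0.16 to 0.28, above 0.1 in 2 of 6 pairs, too few pairs to decide on a pairing. Per the methods the fish were killed when sampled, so a number shared between groups does not mark the same fish. The share of higher calls was 64.4% with 75th percentile scaling, which had no lowess step, and 37.5% with only lowess left out. It was 55.2% with slide as a block, 55.3% over the slides that held both groups, 47.6% with array weights and 63.5% on slide 5 alone. With quantile normalization, normexp and the authors' processed values it was 50.3% to 53%. With slide as a block, where net-pen 4M kept only fish 1 and 2, 679 features were also called against net-pen 4M. Over the slides with both groups 2130 features had an adjusted p under 0.05 and 3519 had no overlap, with 4 fish in each group in place of 6 and 7. In limma 0 features on slide 5 and 1 on slide 6 had an adjusted p under 0.05, with 4 arrays each, where 1735 and 2763 had an unadjusted p under 0.05. The single feature was Ssa#CB509156. Array weights gave the highest count with an adjusted p under 0.05, 5118. The log2-ER of the 4 named features kept its sign under every alternative, but its size moved. It was 4.83 to 7.23 for Ssa#S30269971 and 4.22 to 6.37 for Ssa#S50687585. For Ssa#CB509156 it was -12.22 to -8.68 and for Ssa#CK888312 -6.04 to -2.99. The adjusted p of the log2-ER stayed under 0.05 outside single slides, except for Ssa#CK888312, with the values in the report and 0.0576 without the 2 dimmest arrays. The counts against net-pen 4M and S-CCS 1M could not be fitted with only the 13 arrays, with the fish block or within slides, where those groups were absent.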
